A study of Mus musculus with 6 samples.

Results

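BH3-only genes encode the proteins that start the mitochondrial route of programmed cell death, and 8 of them are described here in activated mouse B cells: Bcl2l11 (protein name BIM), Bbc3 (PUMA), Pmaip1 (NOXA), Bid, Bmf, Bad, Bik and Hrk. They were chosen by gene symbol, as the rows of the deposited count table whose Ensembl identifiers carry these symbols in GENCODE release M21. All 8 were found among 54838 identifiers, and 7 of them were among the 15136 genes with enough reads to be tested. Hrk was not.

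The treated group was 3 libraries from B cells given 1 µM Cpd10, described in the labels as a Foxo1 inhibitor, and the control group was 3 libraries from cells given the solvent DMSO. Both groups came from spleens of 10 male mice, 3 months old, that had received sheep red blood cells (SRBC) 9 days earlier. B cells sorted as naive were pooled over the mice and 2 independent experiments, kept in culture for 5 days with an anti-CD40 antibody (5 µg/ml) plus mouse interleukin 4 (80 ng/ml), and treated for 48 hours between day 3 and day 5. The labels give no strain and do not say which cultures the replicate letters A, B and C stand for, so p-values cover the spread of these libraries alone, which can be technical.

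BH3-only proteins share a short helix, the BH3 region, that docks into a groove of the pro-survival BCL2 proteins (BCL2, BCL-XL, MCL1 and A1) and blocks them. Some of them, BIM and the cut form of BID above all, also switch on BAX and BAK, which open the outer mitochondrial membrane so that cytochrome c escapes and caspases are activated. BIM is known for the removal of self-reactive and surplus lymphocytes, PUMA and NOXA are known targets of p53, and FOXO factors are known activators of Bcl2l11 and Bbc3.

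The stretches of messenger RNA that encode the BH3 region are shown because they are what makes these genes a family, and because the genes otherwise differ in length and layout. Each is 45 bases of coding sequence, 5′ to 3′, in GENCODE M21 (GRCm38), with the leucine codon and the pair of codons for a small residue and aspartate, the core of the BH3 helix, in capitals.
Bcl2l11: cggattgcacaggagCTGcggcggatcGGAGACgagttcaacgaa
Bbc3: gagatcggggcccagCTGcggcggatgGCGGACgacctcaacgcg
Bmf: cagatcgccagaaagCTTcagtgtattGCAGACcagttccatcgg
Bid: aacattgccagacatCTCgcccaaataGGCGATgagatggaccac
Bad: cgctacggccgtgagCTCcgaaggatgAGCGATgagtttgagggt
Bik: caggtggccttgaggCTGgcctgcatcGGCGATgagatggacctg
Hrk: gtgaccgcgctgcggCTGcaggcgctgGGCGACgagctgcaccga
The Bcl2l11 stretch lies in exon 3 of 4 on the plus strand (chr2:128147135-128147179), and the Bbc3 stretch in exon 3 of 4 on the plus strand (chr7:16313758-16313802). The Bmf stretch (chr2:118545097-118545141) and the Bid stretch (chr6:120897286-120897330) lie in exon 4 on the minus strand, and those of Bad (chr19:6950777-6950821), Bik (chr15:83543069-83543113) and Hrk (chr5:118169876-118169920) on the plus strand in exons 3, 3 and 1. Pmaip1 is not among the stretches shown or compared. Among the other 6, Bcl2l11 shared the most bases with Bbc3 (64.4%) and the fewest with Bid (48.9%). Of 5 complete coding transcripts annotated for Bcl2l11, 4 held the core codons. The counts are per gene, so transcripts with and without them cannot be told apart.

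Promoter windows were searched for GTAAACA on both strands, letters that FOXO factors are known to bind. RefSeq windows (build GRCm38.p6, 250 bases before to 50 after each annotated start) were matched by symbol for 6 members, with 12 windows. Pmaip1 was left out of this search of members, and no window was matched for Bik. Of the 6 members, 2 held the letters, each in only 1 of its windows: Bcl2l11 (chr2:128125788-128126087, plus strand) and Bbc3 (chr7:16310011-16310310, plus strand). Both windows are shown, with the letters in capitals; they read GTAAACA in Bcl2l11 and its reverse complement in Bbc3.
Bcl2l11: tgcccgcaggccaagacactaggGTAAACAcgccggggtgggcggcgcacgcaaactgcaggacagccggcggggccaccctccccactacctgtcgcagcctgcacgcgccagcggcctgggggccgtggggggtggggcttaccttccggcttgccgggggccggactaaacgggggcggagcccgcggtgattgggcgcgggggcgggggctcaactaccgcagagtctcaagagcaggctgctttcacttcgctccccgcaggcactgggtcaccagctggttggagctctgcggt
Bbc3: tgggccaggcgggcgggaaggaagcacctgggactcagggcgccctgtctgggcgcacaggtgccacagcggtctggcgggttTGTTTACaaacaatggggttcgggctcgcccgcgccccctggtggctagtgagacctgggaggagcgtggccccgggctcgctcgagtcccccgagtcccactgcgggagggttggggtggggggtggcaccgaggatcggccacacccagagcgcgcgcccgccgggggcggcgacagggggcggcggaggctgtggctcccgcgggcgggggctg
Counted from the start site, the match began at base -227 in Bcl2l11 and at base -167 in Bbc3. The letters occurred in 3.65% of all 32851 windows of this length, a share per window, while the 2 of 6 members are counted per gene. Of 321 tested genes with the letters in a window, 1 passed the test described below, Bcl2l11, and the median log2 fold change was -0.0059. Of the 9945 tested genes whose windows lacked them, 33 were called higher and 4 lower, and the median was -0.00068. A match is a description of letters, not of a bound site.

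Libraries held 36873204 to 44859930 counts. They fell into 2 sets that crossed the treatment and that the labels do not name: Cpd10 A, DMSO A and DMSO C (set 1), and Cpd10 B, Cpd10 C and DMSO B (set 2). This was the split with the most genes near 0 in 3 libraries and at 50 counts or more in the other 3 (9 genes, against 1 for the next split). The 8 markers of B cells summed to between 10861 and 13259.8 CPM (counts scaled to a common, normalised library size) in Cpd10 libraries and between 12964 and 14711 CPM in DMSO libraries. Most of this sum was Cd74, with a mean of 6939 CPM in Cpd10 and 8192 CPM in DMSO. Groups did not overlap for Cd74 and Ptprc, both lower in Cpd10, beside 7.32% of all tested genes apart in that direction. The other B cell markers overlapped, and none of the 8 was called by edgeR. Markers of other cells were low: all 6 T cell, 3 neutrophil, 3 erythroid and 3 dendritic cell markers were under 1 CPM in every library, and the 4 plasma cell markers, which B cells of this culture can acquire, summed to between 1561 and 2197 CPM in Cpd10 libraries and between 1523 and 3742 CPM in DMSO libraries. The highest plasma cell sum was that of DMSO C, where Jchain was at 2057 CPM. In every other library Xbp1 made up most of the sum. Xbp1 averaged 1325 CPM in Cpd10 and 1208 CPM in DMSO. The other plasma cell markers had lower means in Cpd10 than in DMSO. Jchain had 406 against 1065 CPM, Prdm1 25.6 against 47.3 CPM and Sdc1 17.3 against 45.8 CPM. The groups overlapped for each plasma cell marker, and none was called by edgeR. Sums over the markers of macrophages, NK cells, and fibroblasts and endothelium were carried mostly by single genes. Adgre1 made up nearly all of the macrophage sum (8.77 to 15.4 CPM in Cpd10 libraries and 14.2 to 21.9 CPM in DMSO libraries), with the other 4 markers under 1 CPM. Prf1 made up nearly all of the NK cell sum (1.98 to 6.15 CPM in Cpd10 and 3.58 to 9.54 CPM in DMSO), with Ncr1 at 0. In the fibroblast and endothelial sum (4.93 to 10.1 CPM in Cpd10 and 11.9 to 20.7 CPM in DMSO), Pecam1 averaged 4.88 CPM in Cpd10 and 13.4 CPM in DMSO, Pdgfrb 2.26 CPM in Cpd10 and 1.63 CPM in DMSO, and Col3a1 was at 0. The part of plasma cell and other marker genes in the results below was not tested. In bulk RNA, fewer cells of a type and less RNA per cell cannot be told apart.

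Bcl2l11, whose product BIM binds every pro-survival BCL2 protein, rose in cells given Cpd10. It was at 303, 289 and 291 CPM in Cpd10 libraries A, B and C, against 158, 152 and 158 CPM in DMSO libraries A, B and C (13733, 11403 and 10919 counts, against 7049, 5527 and 6502). The 3 Cpd10 libraries lay together and far above the 3 DMSO libraries, with no overlap, and neither group held an outlying library. The mean was 294 ± 7.35 CPM in Cpd10 and 156 ± 3.40 CPM in DMSO (SD, n = 3 each), a ratio of 1.88. The log2 fold change was 0.91 (SE 0.084; edgeR quasi-likelihood adjusted p = 0.0125, Benjamini-Hochberg over all 15136 genes), and its p ranked 8 among them. Bcl2l11 (ENSMUSG00000027381) lies on the plus strand of chromosome 2, from 128126038 to 128162547 in GRCm38.

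Within set 1 the ratio of Cpd10 A to the mean of DMSO A and DMSO C was 1.91, and within set 2 the ratio of the mean of Cpd10 B and Cpd10 C to DMSO B was also 1.91. With the library set as a term, a term found in these same counts, the log2 fold change was 0.93 (SE 0.076, edgeR adjusted p = 1.81e-05). Leaving out single libraries kept the fold change between 0.90 and 0.93 but not always the call: the edgeR adjusted p was 0.0721 without Cpd10 B, 0.119 without Cpd10 C, 0.0810 without DMSO C and 0.0811 without DMSO A. Without Cpd10 A it came to 0.0104, and without DMSO B to 0.0207.

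Of the 7 members tested, 1 was called higher, 0 lower and 6 did not pass. Over all genes 0.370% were called in either direction, 0.317% higher and 0.0529% lower. Bcl2l11 was also the only member called by limma-voom (0.304% of all genes called), without the filter on low counts (0.773%), with replicate letters as a block (0.324%) and with the library set as a term (2.32% of all genes higher and 1.64% lower). The median log2 fold change of the 7 was -0.23, beside -0.0012 over all tested genes. Of the 6 that did not pass, 4 had a negative fold change (Pmaip1, Bbc3, Bmf and Bid) and 2 a positive one (Bik and Bad).

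**Figure D1:**
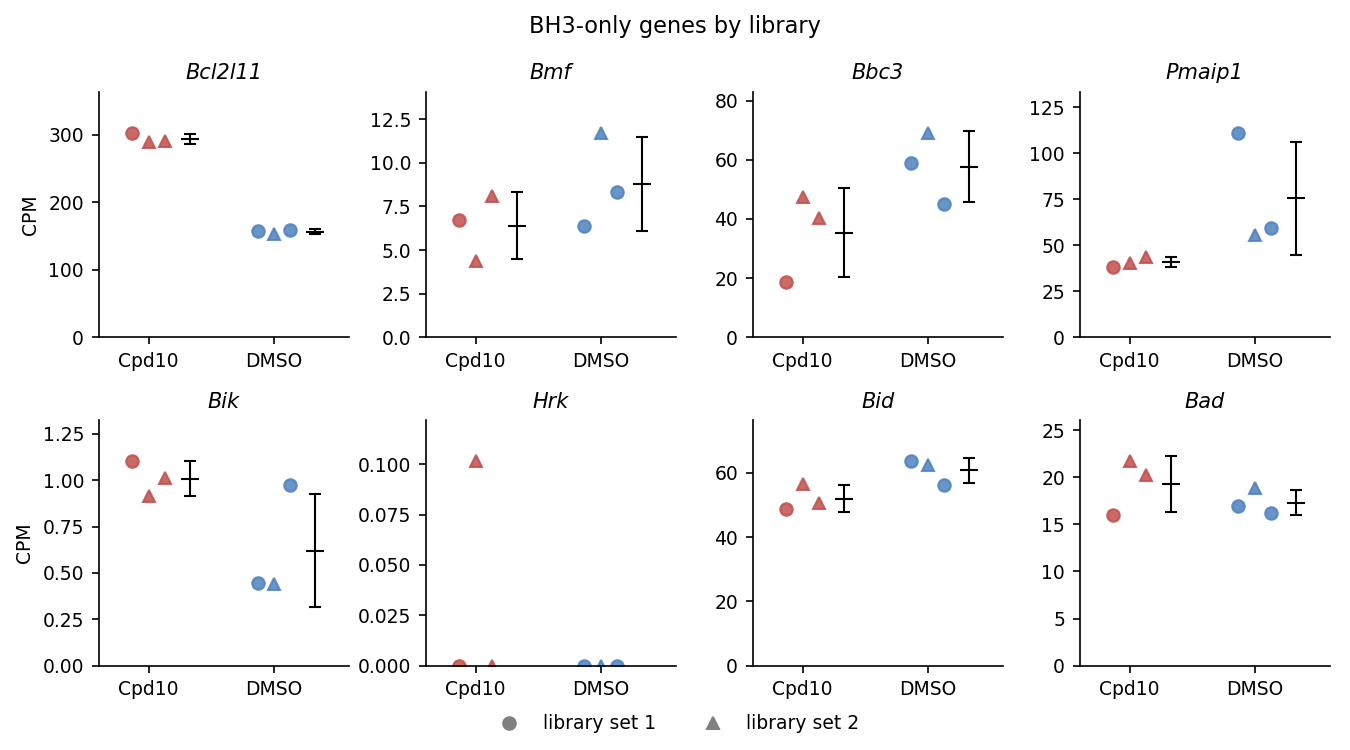
Level of each BH3-only gene (CPM) in the 3 Cpd10 and 3 DMSO libraries; circles are library set 1, triangles set 2, and the bar beside each group is its mean ± SD (not drawn for Hrk, which was not tested). Bcl2l11 separates the groups with little spread, Pmaip1 separates them with 1 high DMSO library at 111 CPM, and the groups of the other genes overlap.

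Pmaip1 and Bbc3 encode NOXA, a selective antagonist of MCL1 and A1, and PUMA, which like BIM binds all pro-survival proteins. Pmaip1 (ENSMUSG00000024521, chromosome 18, 66458533 to 66465565, plus strand) was at 38.2, 40.6 and 43.4 CPM in Cpd10 libraries A, B and C, against 111, 55.7 and 59.4 CPM in DMSO libraries A, B and C. All 3 Cpd10 libraries lay below all 3 DMSO libraries, and DMSO A stood far above the rest. The log2 fold change was -0.89 (SE 0.26) and did not pass (edgeR adjusted p = 0.361, unadjusted p = 0.0115). It was -0.50 without DMSO A, and -0.78 (SE 0.36, edgeR adjusted p = 0.428) with the library set as a term. The ratio of Cpd10 to DMSO was 0.448 in set 1 and 0.754 in set 2. DESeq2, run without the filter on low counts, gave a log2 fold change of -0.89 with an adjusted p of 0.0293. That fit called 1.15% higher and 0.849% lower of the 17782 genes to which it gave an adjusted p. Groups did not overlap for 2 of the 7 members tested (Bcl2l11 and Pmaip1) and for 14.6% of all tested genes (7.31% higher and 7.32% lower in Cpd10).

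Bbc3 was at 18.5, 47.4 and 40.3 CPM in Cpd10 libraries A, B and C, against 59.0, 69.1 and 45.0 CPM in DMSO libraries A, B and C. Cpd10 A was the lowest of the 6, and Cpd10 B lay above DMSO C, so the groups overlapped. The log2 fold change was -0.71 (SE 0.34, edgeR adjusted p = 0.678). It was -0.39 without Cpd10 A and -1.07 (SE 0.23) with the library set as a term, where it came closer to the threshold without passing it (edgeR adjusted p = 0.0767, unadjusted p = 0.0038). The ratio of Cpd10 to DMSO was 0.356 in set 1 and 0.634 in set 2. Bbc3 (ENSMUSG00000002083, chromosome 7, 16308393 to 16318205, plus strand) carries the same 7 letters as Bcl2l11 in a promoter window. Its fold change had the opposite sign but did not pass, and a part of the letters in either change was not tested.

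Bid and Bmf stand for other inputs to the pathway: BID is cut by caspase 8 and links death receptors to mitochondria, and BMF is held at the cytoskeleton by a dynein light chain. Bid was at 48.7, 56.6 and 50.6 CPM in Cpd10 libraries A, B and C, against 63.6, 62.5 and 56.3 CPM in DMSO libraries A, B and C. Cpd10 B and DMSO C crossed by a narrow margin. The log2 fold change was -0.23 (SE 0.11, edgeR adjusted p = 0.650), and -0.26 (SE 0.096, edgeR adjusted p = 0.185) with the set term. Bmf, which FOXO factors are also known to activate in other cells, was at 6.74, 4.36 and 8.12 CPM in Cpd10 libraries, against 6.40, 11.7 and 8.32 CPM in DMSO libraries. Its groups overlapped, and the log2 fold change was -0.46 (SE 0.31, edgeR adjusted p = 0.789), with values from -0.66 (without Cpd10 C) to -0.20 (without DMSO B) when single libraries were left out.

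Bad, whose product is kept inactive by kinases of the AKT pathway and bound by 14-3-3 proteins, was at 16.0, 21.7 and 20.2 CPM in Cpd10 libraries A, B and C, against 16.9, 18.8 and 16.2 CPM in DMSO libraries A, B and C. The groups overlapped (log2 fold change 0.16, SE 0.16, edgeR adjusted p = 0.881). The ratio of Cpd10 to DMSO was 0.964 in set 1 and 1.11 in set 2, so its direction differed between the sets. Leaving out single libraries gave Bad values from 0.063 (without Cpd10 B) to 0.28 (without Cpd10 A). Bik had low counts, and Hrk was near or at the limit of detection. Bik had 50, 36 and 38 counts in Cpd10 libraries, against 20, 16 and 40 in DMSO libraries, where DMSO C reached into the Cpd10 range (log2 fold change 0.70, SE 0.51, edgeR adjusted p = 0.817). Without DMSO C the value was 1.18 (edgeR adjusted p = 0.883). Hrk had 0, 4 and 0 counts in Cpd10 libraries A, B and C and 0 in each DMSO library. A count of 0 allows up to 3 counts, which is 0.0661 to 0.0826 CPM in these libraries, so no fold is given; these limits cover counting error only.

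Some counts rest on shared ground. Exons of Bid share 628 of 3550 bases with Bcl2l13 on the opposite strand, and exons of Bad share 524 of 2558 bases with Gpr137, also opposite. The strand setting of the counting is not given in the sources. The fitted log2 fold change was -0.11 for Bcl2l13 (edgeR adjusted p = 0.855) and 0.075 for Gpr137 (edgeR adjusted p = 0.932), a value whose sign turned without DMSO A (-0.0099).

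**Figure D2:**
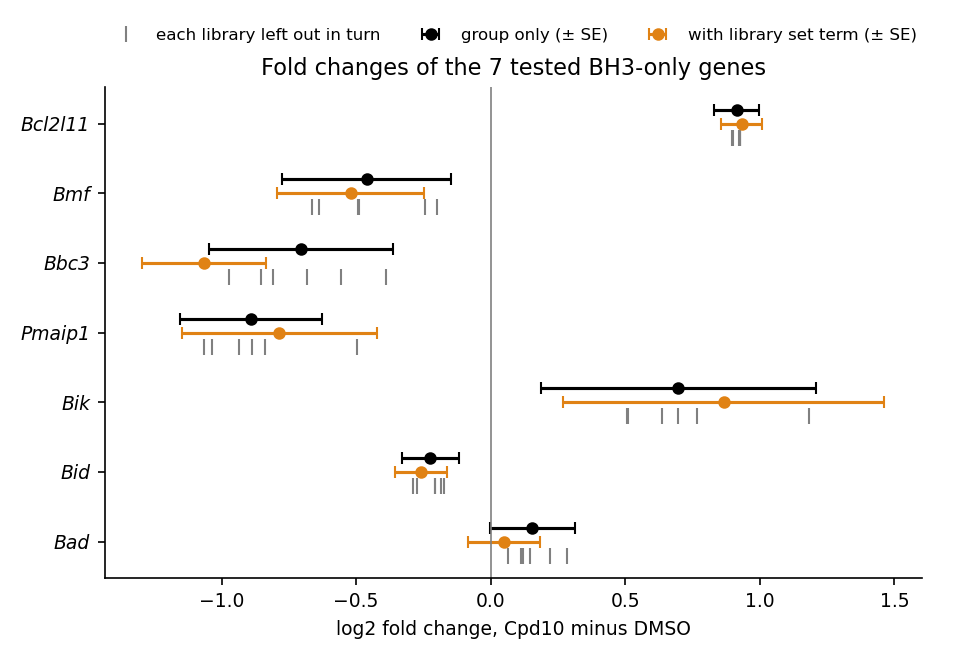
Log2 fold change (Cpd10 minus DMSO) of the 7 tested BH3-only genes: black points, group-only fit ± SE; orange points, fit with the library set ± SE; grey ticks, fits that leave out 1 library each. The ticks of Bcl2l11 lie between 0.90 and 0.93, and those of Pmaip1 spread from -1.07 to -0.50.

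**Figure D3:**
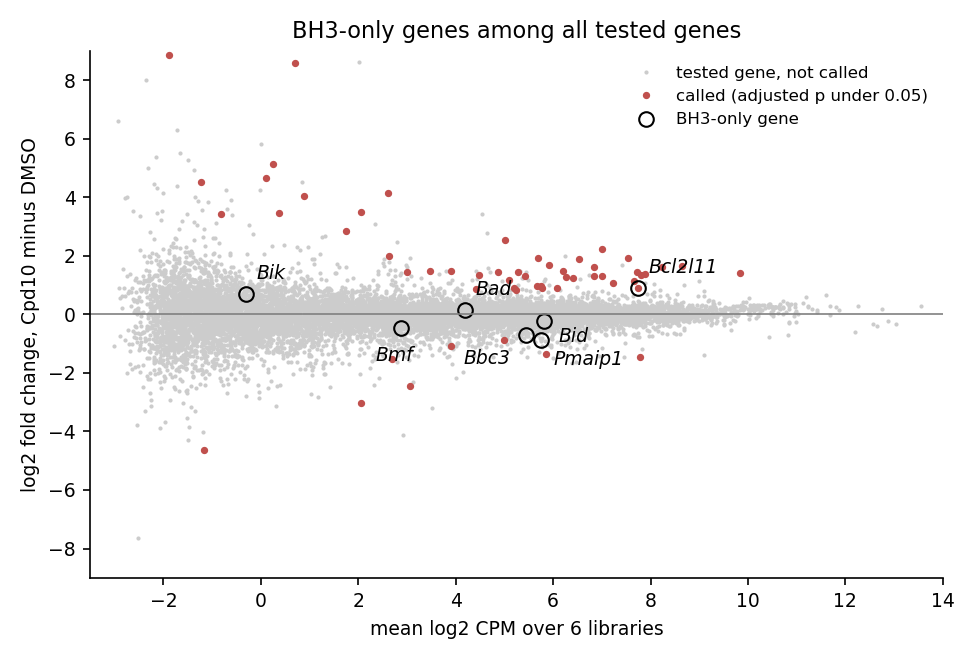
Log2 fold change (Cpd10 minus DMSO) against mean log2 CPM over 6 libraries for the 15136 tested genes, with the 56 called genes in red and the BH3-only genes circled. Bcl2l11 is called at 0.91 among highly expressed genes, where most fold changes are close to 0, and the other 6 circled genes lie within the grey points.

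Levels of different genes were compared per kilobase of exons, since longer genes collect more reads; the length used joins all annotated exons and may exceed that of the transcripts present. On this scale Bcl2l11 was the highest member in each Cpd10 library, at 37.7, 36.0 and 36.2 CPM per kb. In DMSO libraries it was at 19.7, 18.9 and 19.7 CPM per kb. There Pmaip1 was the highest in DMSO A (40.7 CPM per kb) and DMSO C (21.8 CPM per kb), and Bbc3 in DMSO B (32.6 CPM per kb). Mean levels in Cpd10 ran from 36.6 ± 0.915 CPM per kb for Bcl2l11 to 16.7 ± 7.09 for Bbc3, 14.9 ± 0.957 for Pmaip1, 14.6 ± 1.17 for Bid, 7.54 ± 1.16 for Bad, 1.22 ± 0.362 for Bmf and 0.634 ± 0.0593 for Bik (SD, n = 3 each). Of these neighbours, Bbc3, Pmaip1 and Bid lay within each other's spread.

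In DMSO, mean levels per kb were 27.6 ± 11.3 for Pmaip1, 27.2 ± 5.70 for Bbc3, 19.4 ± 0.423 for Bcl2l11, 17.1 ± 1.10 for Bid, 6.77 ± 0.534 for Bad, 1.68 ± 0.513 for Bmf and 0.390 ± 0.192 for Bik (CPM per kb, SD, n = 3 each). In each DMSO library Bcl2l11 stood below Pmaip1 and Bbc3 and above every other member, although it lay close to them in some libraries (19.7 against 21.2 for Bbc3 and 21.8 for Pmaip1 in DMSO C). Pmaip1 and Bbc3 lay within each other's spread.

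Summed per kb, the 8 genes overlapped between the groups, while the shares taken by Bcl2l11, Pmaip1, Bbc3 and Bad did not. Bcl2l11 took 45.8%, 36.4% and 37.9% of the summed level per kb of the 8 genes in Cpd10 libraries A, B and C, against 17.2%, 19.1% and 22.6% in DMSO libraries A, B and C. The sum itself was 82.3, 99.0 and 95.4 CPM per kb in Cpd10 libraries, against 114, 99.4 and 87.0 CPM per kb in DMSO libraries. Pmaip1 took 17.0%, 15.0% and 16.7% in Cpd10 libraries and 35.6%, 20.5% and 25.0% in DMSO libraries. Bbc3 took 10.6%, 22.5% and 19.9% in Cpd10 libraries and 24.3%, 32.8% and 24.4% in DMSO libraries. The share of Bad was higher in Cpd10, at 7.58%, 8.56% and 8.28%, against 5.80%, 7.41% and 7.27% in DMSO libraries. Shares within a library are tied to each other, since a larger share for Bcl2l11 leaves less for the rest. These shares describe the libraries; no test was made on them.

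**Figure D4:**
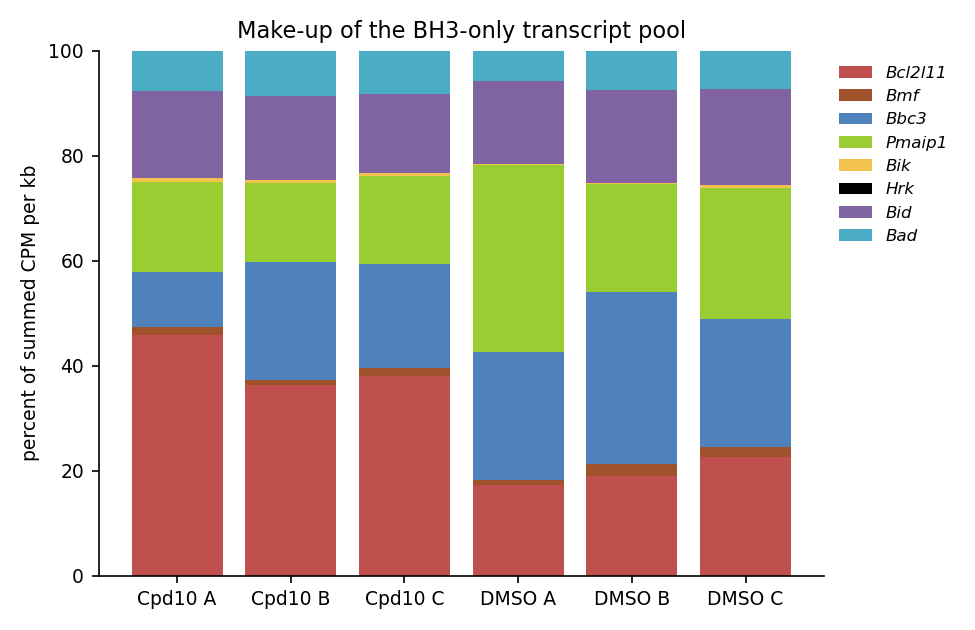
Share of each BH3-only gene in the summed CPM per kb of the 8 genes, 1 stacked bar per library, Cpd10 libraries on the left. The red Bcl2l11 segment spans 36.4% to 45.8% in Cpd10 libraries and 17.2% to 22.6% in DMSO libraries.

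The rest of the pathway was described through 7 lists with 82 genes, of which 77 were tested. By edgeR 0 of the 77 passed over all genes; 8 had an unadjusted p under 0.05 and were higher, and 6 were lower, beside 3.86% of all tested genes higher, 4.53% lower and 8.39% in either direction. DESeq2, which gave a p for 81 of the 82, called 4 higher (Dffa, Pim2, Smad3 and Birc2) and 1 lower (Jun). It called 1.15% of all genes higher and 0.849% lower. Its shares of all genes, here and below, are over the 17782 genes to which it gave an adjusted p. Limma-voom called 0, beside 0.304% of all genes. With the library set as a term edgeR called 7 higher and 1 lower. That fit called 3.96% of all genes, 2.32% higher and 1.64% lower. The groups did not overlap for 20 of the 77, or 26.0%, beside 14.6% of all tested genes.

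The pro-survival genes, whose products BIM and PUMA bind, had a median of 0.15 on the log2 fold scale over 7 tested of 8. None was called by edgeR, DESeq2, limma-voom or with the set term. By edgeR 1 of 7 had an unadjusted p under 0.05, beside 8.39% of all tested genes. Bcl2 was at 41.0, 42.2 and 38.3 CPM in Cpd10 libraries A, B and C, against 90.1, 46.8 and 60.9 CPM in DMSO libraries A, B and C. Its groups did not overlap, DMSO A was again the highest library, and the log2 fold change was -0.70 (SE 0.22, edgeR adjusted p = 0.403). It was -0.41 without DMSO A and -0.90 (edgeR adjusted p = 0.0937) without DMSO B. Mcl1, whose short-lived product is known to keep activated B cells alive, was at 437, 513 and 473 CPM in Cpd10 libraries, against 534, 564 and 569 CPM in DMSO libraries (log2 fold change -0.23, SE 0.11, edgeR adjusted p = 0.655). Bcl2l1, which encodes BCL-XL, had 0.11 (adjusted p = 0.948) and turned to -0.11 without DMSO C. Bcl2a1a and Bcl2a1b, near-identical copies of the A1 gene that can share reads, had 1.18 and 0.31 (edgeR adjusted p = 0.753 and 0.780).

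The ratio of Bcl2l11 to Mcl1, both per kb, was 0.295, 0.240 and 0.262 in Cpd10 libraries A, B and C, against 0.126, 0.115 and 0.118 in DMSO libraries A, B and C. The ratio of Bcl2l11 to Bcl2 was 8.41, 7.82 and 8.66 in Cpd10 libraries, against 2.00, 3.71 and 2.96 in DMSO libraries. The ratio of Bcl2l11 to Bcl2l1 was 1.59, 1.17 and 1.22 in Cpd10 libraries, against 0.567, 0.728 and 1.14 in DMSO libraries, and that to the summed pro-survival genes was 0.133, 0.0693 and 0.0751 in Cpd10 libraries, against 0.0542, 0.0429 and 0.0634 in DMSO libraries. None of these 4 ratios overlapped between the groups, although the last 2 came close (Cpd10 B and DMSO C). All contain Bcl2l11 itself, and the fold changes of Mcl1 and Bcl2 in the denominators were negative. A large part of the summed pro-survival level (283 to 520 CPM per kb) was Bcl2a1d, another A1 copy, named here after its value was seen. It was at 73.0, 238 and 220 CPM per kb in Cpd10 A, B and C. In DMSO A, B and C it was at 100, 174 and 72.6 CPM per kb. Set 2 libraries were the higher ones in both groups. The log2 fold change of Bcl2a1d was 0.62 (SE 0.52, edgeR adjusted p = 0.850). No ratio was tested. The ratio of the summed 8 BH3-only genes to the summed pro-survival genes did overlap, at 0.291, 0.191 and 0.198 in Cpd10 libraries, against 0.315, 0.225 and 0.280 in DMSO libraries.

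Of the pore-forming effectors, Bak1 was at 103, 96.8 and 98.4 CPM in Cpd10 libraries A, B and C, against 77.4, 86.3 and 79.1 CPM in DMSO libraries A, B and C, with no overlap but no call (log2 fold change 0.29, SE 0.088, edgeR adjusted p = 0.355). Bax had -0.053 (SE 0.19, edgeR adjusted p = 0.966), and its sign turned without Cpd10 A (0.11) and without DMSO B (0.095). Bok was not tested.

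Downstream of mitochondria, 17 genes of the apoptosome, the caspases and their inhibitors had a median of 0.13 on the log2 fold scale, and 0 were called. By edgeR 4 had an unadjusted p under 0.05, all higher, beside 3.86% of all tested genes higher. DESeq2 called 2 higher, beside 1.15% of all genes, and limma-voom called 0. Dffa, which encodes the inhibitor of the caspase-activated DNase, was at 105, 90.6 and 99.7 CPM in Cpd10 libraries A, B and C, against 69.9, 69.7 and 64.0 CPM in DMSO libraries A, B and C. Its log2 fold change was 0.54 (SE 0.097, edgeR adjusted p = 0.0929; under the set term it was 0.00372). Birc2, the gene of the ubiquitin ligase cIAP1, was at 548, 895 and 901 CPM in Cpd10 libraries, against 266, 499 and 304 CPM in DMSO libraries, where set 2 libraries were the higher ones in both groups. It had 1.13 (SE 0.29, edgeR adjusted p = 0.272; under the set term 4.50e-05), and Casp6, an executioner caspase, 0.45 (adjusted p = 0.403; under the set term 0.0401). With the set term 4 of the 17 were called, all higher, beside 2.32% of all tested genes called higher. Besides Dffa, Birc2 and Casp6 these included Birc5, named here after its value was seen.

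Death receptors and their adaptors gave 0 calls by each of these fits (7 of 9 genes were tested by edgeR), with 0 at an unadjusted p under 0.05 by edgeR's group-only fit and no gene whose groups were apart. Cflar, the inhibitor of caspase 8, had -0.37 on the log2 scale (SE 0.17, edgeR adjusted p = 0.628; -0.17 without DMSO A), Fas 0.32 (adjusted p = 0.736) and Ripk1 -0.20 (adjusted p = 0.783).

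Among 20 partners and kinases of BH3-only proteins, 0 were called and the median log2 fold change was 0.063. By edgeR 1 had an unadjusted p under 0.05, beside 8.39% of all tested genes. DESeq2 called 1, beside 2.00% of all genes, and limma-voom called 0. Pim2, a kinase that phosphorylates BAD, was at 326, 358 and 372 CPM in Cpd10 libraries A, B and C, against 172, 256 and 190 CPM in DMSO libraries A, B and C. The groups did not overlap, and DMSO B was the highest DMSO library. The log2 fold change was 0.77 (SE 0.16, edgeR adjusted p = 0.126), with an adjusted p of 0.00102 with the set term, 0.00165 by DESeq2 and 0.0289 without DMSO B. Pim1 had -0.20 (edgeR adjusted p = 0.724) and Dynll2, a light chain that holds BMF, 0.19 (adjusted p = 0.736).

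Transcription factors known to act on BH3-only genes numbered 17, with a median log2 fold change of -0.15 and 0 calls. At an unadjusted p under 0.05 by edgeR 2 were higher and 5 lower, beside 3.86% and 4.53% of all tested genes. DESeq2 called 1 higher and 1 lower, beside 1.15% and 0.849% of all genes, and limma-voom called 0. Foxo1 was at 130, 115 and 111 CPM in Cpd10 libraries A, B and C, against 137, 122 and 155 CPM in DMSO libraries A, B and C (log2 fold change -0.22, edgeR adjusted p = 0.711, and -0.13 without DMSO C), which measures its transcript and not the activity of the protein. Foxo3 had -0.15 (adjusted p = 0.913; 0.045 without Cpd10 A), Foxo4 0.37 (adjusted p = 0.584) and Trp53 -0.089 (adjusted p = 0.865). Jun, an AP-1 factor known to induce Bcl2l11 in neurons, was at 86.2, 81.1 and 78.1 CPM in Cpd10 libraries, against 173, 111 and 124 CPM in DMSO libraries. No Cpd10 library reached any DMSO library. Its log2 fold change was -0.73 (SE 0.17, edgeR adjusted p = 0.167; under the set term 0.0326). Smad3, a mediator of TGF-beta signals, had 0.81 (SE 0.17, edgeR adjusted p = 0.136; under the set term 0.0162), and Tsc22d3, the glucocorticoid-induced GILZ gene, -0.43 (edgeR adjusted p = 0.316). With the set term 2 factors were called higher and 1 lower, beside 2.32% and 1.64% of all tested genes. Besides Smad3 and Jun these included Mybl2, named after its value was seen.

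Genes of BH3-related mitophagy and autophagy, 7 of 8 tested by edgeR, gave 0 calls by edgeR, DESeq2, limma-voom and with the set term (0 at an unadjusted p under 0.05 by edgeR), with a median log2 fold change of 0.13. Fkbp8, a mitochondrial anchor of BCL2, had 0.19 (edgeR adjusted p = 0.617) and Bcl2l12 0.31 (adjusted p = 0.620).

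**Figure D5:**
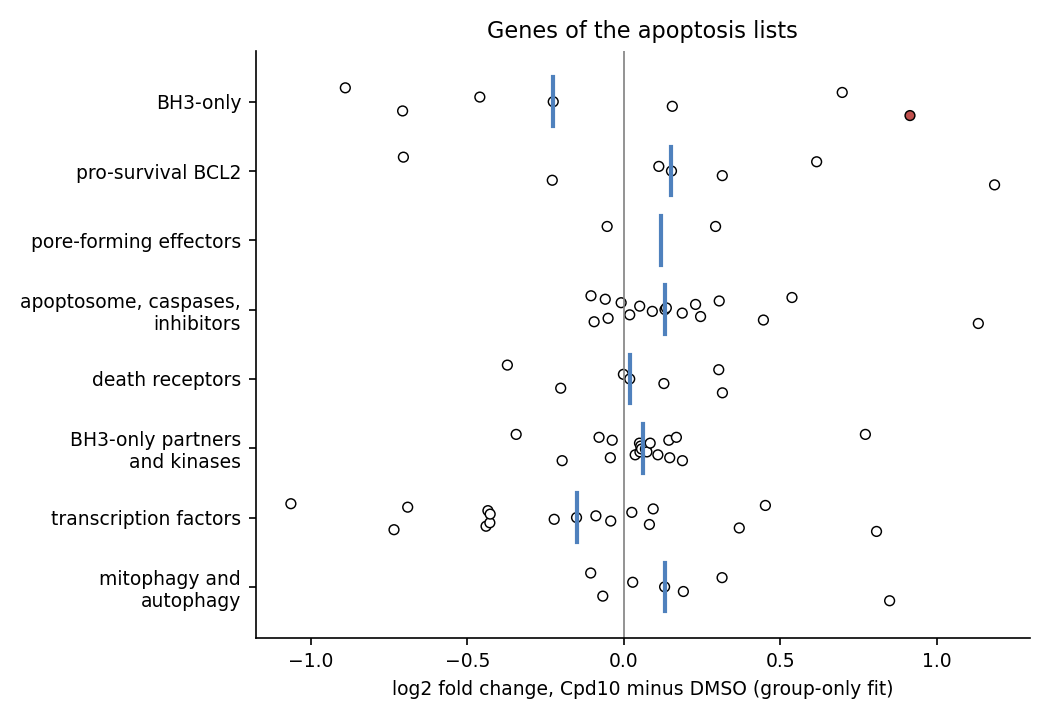
Log2 fold change (Cpd10 minus DMSO, group-only fit) of each tested gene in the BH3-only list and the 7 pathway lists; the filled red point is the only gene called, Bcl2l11, open points did not pass, and blue bars are list medians, which run from -0.23 for BH3-only genes to 0.15 for pro-survival genes.

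The genes whose pattern over the 6 libraries was most like that of Bcl2l11, by Pearson correlation of log2 CPM among 8651 other genes that averaged at least 10 CPM, were Hlx (r = 0.998), Ints6l (0.997), Cenps (0.996), Dmwd (0.995) and Rubcn (0.994). The 6 points share libraries, depth and treatment, so these are descriptions. Hlx, a homeobox transcription factor, was at 98.2, 90.0 and 90.4 CPM in Cpd10 libraries A, B and C, against 51.3, 47.1 and 50.5 CPM in DMSO libraries A, B and C. Its log2 fold change, 0.90, was close to that of Bcl2l11 (SE 0.092, edgeR adjusted p = 0.0159). Cenps, a centromere protein gene that lies near Dffa on chromosome 4, had 0.97 (edgeR adjusted p = 0.0125) and Rubcn, a negative regulator of autophagy, 1.38 (adjusted p = 0.00667). Dmwd had 0.63 and did not pass (edgeR adjusted p = 0.0832). Ints6l had the largest fold change of these genes, 2.23 (edgeR adjusted p = 0.00426), as a correlation does not measure the size of a change.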

How the data were processed

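RNA of cultured mouse B cells was sequenced after poly A selection in 6 libraries. The authors deposited raw counts, 1 whole number for each gene and library. Per the submitters' processing notes, the tools were STAR (2.7.10a), DESeq2 and featureCounts (2.0.6), on GRCm38 (mm10). Strand setting and annotation release are not given in the sources used here. Symbols came from GENCODE M21, which held 54809 of 54838 identifiers.

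Counts were tested with edgeR 4.0.16 (R 4.3.3): TMM normalisation, filterByExpr, robust quasi-likelihood fit with the group as the only term, Benjamini-Hochberg adjustment over 15136 genes, calls at an adjusted p under 0.05. Fold changes are Cpd10 minus DMSO on the log2 scale; SE is the log2 fold change over the root of F. Alternatives were RLE, upper-quartile and plain library-size scaling, no filter, DESeq2 1.42.0, limma-voom 3.58.1, each library left out, a replicate block, a library set term and a threshold of 0.1. Replicates differed beyond sampling noise (chi-square per degree of freedom 12.3 to 176), so none was merged.

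The members, gene lists, set term and tests were chosen with earlier results of these data known. Genes named are the 8 members, fixed members of the lists, the 3 smallest p in each list, the 2 genes that overlap a member and the 5 genes most like Bcl2l11; others are marked. Promoter windows are from RefSeq (GRCm38.p6).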

Additional observations from a re-analysis of the deposited data

How the results depend on the processing

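The log2 fold change of Bcl2l11 stayed between 0.88 and 0.93 under every alternative run, and its call was lost only when Cpd10 B, Cpd10 C, DMSO A or DMSO C was left out (0.90 to 0.93 over the 6 fits). Members called numbered 2 by DESeq2 (Bcl2l11 and Pmaip1) and 0 to 1 with single libraries left out. No tested member changed sign in these fits; the ratio of Bad turned within set 1 (0.964). Over all genes 56 calls became 194 without the filter, 356 by DESeq2, 599 with the library set term, 115 at a threshold of 0.1, and 0 to 100 with single libraries left out; the 0, without Cpd10 C, stood beside 843 genes at an unadjusted p under 0.05. The calls were 48 higher and 8 lower, but 205 higher and 151 lower by DESeq2 and 351 higher and 248 lower with the set term. Pathway genes called numbered 0, but 4 without the filter, 5 by DESeq2, 8 with the set term, 1 at a threshold of 0.1 and 0 to 1 with single libraries left out. Values near 0 turned sign with a library left out: Bax ranged from -0.19 to 0.11, Bcl2l1 from -0.11 to 0.38, Foxo3 from -0.29 to 0.045 and Gpr137 from -0.0099 to 0.16. The causes were not tested. With the replicate block 49 genes were called and Bcl2l11 had 0.91 (edgeR adjusted p = 0.0252). Deviations correlated at 0.31 for A and 0.43 for B, but -0.31 for C, and Cpd10 A correlated best with DMSO C. These correlations follow the library sets, positive within a set and negative across sets. They therefore cannot show whether the letters pair the libraries. Counts were low for Bik (16 to 50 in each library) and Hrk (0 to 4).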
